A study of Mus musculus with 11 samples.

Results

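Kidney tubule genes were studied here as 10 genes, *Lrp2*, *Slc34a1*, *Acsm2*, *Aqp1*, *Umod*, *Slc12a1*, *Slc12a3*, *Klk1*, *Aqp2* and *Havcr1*, which mark consecutive segments of the renal tubule or, for *Havcr1*, its injury. They were found by symbol, and all 10 were among the 35814 gene symbols counted in each of 11 libraries. The libraries came from bulk RNA sequencing of CD4+ T cells, which had been enriched with an isolation kit and sorted by flow cytometry from mouse kidneys on day 2 after ischemia–reperfusion injury (IRI). The mice were males of 8 to 12 weeks on a C57BL/6 background, and both renal pedicles had been clamped for 45 min in every group, so that no sham-operated group entered these comparisons. CD4cre mice (3 libraries) carried a Cre recombinase driven by the CD4 promoter and served as controls. CD4IKK1Δ mice (5 libraries) carried this Cre with a floxed *Chuk* gene, which encodes IKK1, and CD4NIKΔ mice (3 libraries) carried it with a floxed *Map3k14* gene, which encodes NIK. The CD4 promoter is active in thymocytes before the CD4 and CD8 lineages part, so that this Cre is not limited to CD4+ T cells. Each library was made from at most 50000 cells and then amplified.

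The nephron filters plasma in the glomerulus and then reclaims most of the filtrate along the tubule. The proximal tubule takes back phosphate, amino acids and filtered proteins, the thick ascending limb and the distal convoluted tubule reabsorb sodium chloride through their own cotransporters, and the collecting duct sets water excretion under vasopressin. Proximal cells are the most exposed to ischemia, and surviving cells switch on injury genes such as *Havcr1* while they lose transporters.

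Tubule transcripts were present in these T cell libraries at low levels, and they were lowest in the libraries labelled CD4IKK1Δ. The summed level of the 10 genes, in counts per 1000000 counts of the library (CPM) scaled by the trimmed mean of M values (TMM), was 118, 400 and 26.9 CPM in the CD4cre libraries, replicates 1 to 3. It was 5.31, 2.99, 4.88, 15.0 and 9.58 CPM in the libraries labelled CD4IKK1Δ, replicates 1 to 5, and 15.7, 94.2 and 228 CPM in those labelled CD4NIKΔ. Every library labelled CD4IKK1Δ thus lay below every other library in this sum, the nearest values being 15.0 and 15.7 CPM. In the direct comparison with libraries labelled CD4NIKΔ, *Klk1* and *Umod* were lower past both thresholds used here, a false discovery rate (FDR) under 0.05 and a fold change over 2. Against CD4cre no tubule gene passed them in either group in edgeR's test.

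Library totals ran from 15751632 to 25737046 estimated counts, and 3 counts, taken as the floor, were worth 0.117 to 0.190 CPM. The transcript of the targeted gene did not follow the labels. *Chuk* lay between 16.3 and 33.2 CPM in CD4cre libraries and between 15.2 and 26.4 CPM in those labelled CD4IKK1Δ, and *Map3k14* lay between 14.7 and 19.6 CPM in CD4cre libraries and between 12.9 and 30.8 CPM in those labelled CD4NIKΔ. *Map3k14* was lowest in libraries labelled CD4IKK1Δ, at 1.86 to 9.23 CPM, below every other library, with log2 fold changes of −1.58 against CD4cre (FDR 0.148 from edgeR) and −1.91 against CD4NIKΔ (FDR 0.00418 from edgeR). These values do not resolve the floxed exons, so groups are named by their labels throughout. The T cell label was met unequally: 15 T cell markers summed to 1713 to 3138 CPM in CD4cre libraries, 214 to 1530 CPM in those labelled CD4IKK1Δ and 8539 to 12577 CPM in those labelled CD4NIKΔ. Replicates 1 and 2 labelled CD4IKK1Δ stood apart, with 41 and 868 counts for the T cell receptor constant regions against 5277 to 111648 elsewhere. Transcripts best known from neurons and glia were present as well: 14 neuronal and glial markers summed to 3351 to 4099, 4245 to 4914 and 1142 to 2345 CPM in the groups in the same order. In bulk RNA, fewer cells of a type and less RNA per cell cannot be told apart, which holds for every tubule gene below.

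The sequence of *Klk1* is shown because close copies stand beside it and can take its reads. *Klk1* (chr7:43874725-43879048 on GRCm39, plus strand) encodes tissue kallikrein, a serine protease that the connecting tubule secretes into the urine. Of the 924 subsequences of 31 bases in its transcript, the length by which kallisto assigns reads, 435 (47.1%) also occurred in transcripts of 22 other genes. *Klk1b5* was the nearest, with 95.1% of 783 coding bases identical. The 90 coding bases in which they differ most, coding positions 693 to 782 of both genes, are printed with the 14 differing bases in capitals, from chr7:43878900-43878989 and chr7:43869985-43870074 of GRCm39, both on the plus strand.
Klk1: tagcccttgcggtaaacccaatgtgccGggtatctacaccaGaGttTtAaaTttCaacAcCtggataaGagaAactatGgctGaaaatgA
Klk1b5: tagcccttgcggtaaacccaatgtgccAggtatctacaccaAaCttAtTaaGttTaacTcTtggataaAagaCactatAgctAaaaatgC
Elsewhere the genes were identical over as many as 145 bases in a row. *Klk1b5* itself had 12, 12 and 0 counts in CD4cre libraries, 0, 0, 0, 4 and 0 in those labelled CD4IKK1Δ and 0, 1 and 11 in those labelled CD4NIKΔ. How reads were split between *Klk1* and its copies is uncertain where *Klk1* itself had few counts.

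The promoters of the genes that passed the threshold, *Klk1* and *Umod*, and of *Slc34a1* are shown with a motif that tubule promoters are known to use. HNF1 factors, transcription factors of tubule epithelium, bind a palindrome whose half-site is GTTAAT, and this half-site was searched on both strands (GTTAAT or ATTAAC) in the RefSeq windows from 250 bases before to 50 bases after each transcript start on GRCm38.p6. Matches are in capitals in the windows chr7:44225110-44225409 (plus strand), chr7:119479213-119479512 (minus strand) and chr13:55399398-55399697 (plus strand).
Klk1: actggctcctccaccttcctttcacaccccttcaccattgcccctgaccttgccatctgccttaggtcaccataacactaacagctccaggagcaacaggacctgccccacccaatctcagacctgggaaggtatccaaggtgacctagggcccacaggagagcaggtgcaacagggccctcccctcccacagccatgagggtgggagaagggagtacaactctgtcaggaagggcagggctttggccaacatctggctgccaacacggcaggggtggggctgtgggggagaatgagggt
Umod: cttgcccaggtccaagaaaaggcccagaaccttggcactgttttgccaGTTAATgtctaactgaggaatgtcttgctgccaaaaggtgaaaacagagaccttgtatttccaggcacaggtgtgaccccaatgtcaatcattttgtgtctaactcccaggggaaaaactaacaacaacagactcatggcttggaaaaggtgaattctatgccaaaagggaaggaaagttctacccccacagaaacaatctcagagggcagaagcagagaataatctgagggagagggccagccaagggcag
Slc34a1: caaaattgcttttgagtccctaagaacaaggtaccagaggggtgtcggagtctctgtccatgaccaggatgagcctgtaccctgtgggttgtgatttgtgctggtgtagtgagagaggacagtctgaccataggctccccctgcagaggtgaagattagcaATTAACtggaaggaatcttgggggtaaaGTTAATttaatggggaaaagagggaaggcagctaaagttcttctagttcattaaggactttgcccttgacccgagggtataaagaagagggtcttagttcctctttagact
*Slc34a1* held 2 matches and *Umod* 1, and *Klk1* held none in this window. All 10 genes had a window, 13 in all, and 4 genes (*Slc34a1*, *Umod*, *Acsm2* and *Havcr1*) had a match in 1 window each, where 7.10% of the 32851 mouse promoter windows had one. A match describes the letters only and is not a bound site.

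In the proximal tubule, *Lrp2* had the lowest coefficient of variation of the tubule genes with any counts in CD4cre libraries and in those labelled CD4IKK1Δ, though not in those labelled CD4NIKΔ, and *Acsm2* was at or under the floor. *Lrp2* (chr2:69254682-69416409, minus strand) encodes megalin, the receptor that takes up filtered proteins, and is also expressed in choroid plexus. It was counted 224, 188 and 175 times in CD4cre libraries, 16, 5, 75, 92 and 78 in the libraries labelled CD4IKK1Δ, and 42, 226 and 172 in those labelled CD4NIKΔ. All 5 libraries labelled CD4IKK1Δ lay below the CD4cre libraries, with the lowest values in replicates 1 and 2, while replicate 1 labelled CD4NIKΔ fell among the former. The CD4cre libraries agreed closely at 8.84 ± 0.267 CPM (SD, n = 3), a coefficient of variation of 3.02%, against 111% for *Klk1* and 129% for *Umod*, but *Lrp2* varied by 71.8% among libraries labelled CD4IKK1Δ and by 63.1% among those labelled CD4NIKΔ. Choroid plexus and ependymal markers, led by *Ttr*, summed to 857 to 916 CPM in CD4cre libraries, 1006 to 1619 CPM in those labelled CD4IKK1Δ and 270 to 560 CPM in those labelled CD4NIKΔ. Their part in the *Lrp2* counts was not tested. *Slc34a1* (chr13:55546000-55563413, plus strand) encodes the sodium phosphate cotransporter NaPi-IIa of the brush border. It had 3, 99 and 0 counts in CD4cre libraries, 22, 3, 0, 2 and 1 in those labelled CD4IKK1Δ and 0, 159 and 157 in those labelled CD4NIKΔ. The gene was thus carried by 4 libraries, and every group held a library at 0. Of its 31-base subsequences 13.0% also belong to the overlapping gene *Pfn3*. *Pfn3* had 29 counts in replicate 1 labelled CD4IKK1Δ, where *Slc34a1* had 22, but 35 in replicate 4, where *Slc34a1* had 2. It had 3 and 0 counts in replicates 2 and 3 labelled CD4NIKΔ. *Acsm2* (chr7:119153563-119199913, plus strand), an acyl-CoA synthetase of proximal mitochondria, had 3 counts in CD4cre replicate 2 and 0 in the other 10 libraries, at or under the floor everywhere.

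*Aqp1* and *Havcr1* also stayed near the floor. *Aqp1* (chr6:55313068-55325540, plus strand) encodes the water channel of the proximal tubule and thin descending limb and is also found in red cells and endothelium. It had 9, 0 and 0 counts in CD4cre libraries, 2, 0, 1, 5 and 0 in those labelled CD4IKK1Δ and 15, 9 and 9 in those labelled CD4NIKΔ. On the CPM scale the last group lay above both others, at 0.442 to 0.837 CPM against at most 0.346 CPM, but the gene failed the expression filter in each comparison. Erythroid markers, mainly hemoglobin genes, summed to 2084 to 2678 CPM in CD4cre libraries, 534 to 1610 CPM in those labelled CD4IKK1Δ and 1190 to 8175 CPM in those labelled CD4NIKΔ, and their part in the *Aqp1* counts was not tested. *Havcr1* (chr11:46625907-46670405, plus strand) encodes KIM-1, also called TIM-1, which injured proximal cells shed and which activated lymphocytes can express. It had 1, 8 and 0 counts in CD4cre libraries, 4, 0, 1, 1 and 1 in those labelled CD4IKK1Δ and 0, 0 and 26 in those labelled CD4NIKΔ. Only CD4NIKΔ replicate 3 exceeded 10 counts, so that 2 days after IRI the injury gene was not detectable above the floor in 8 of 11 libraries at this depth.

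The thick ascending limb was represented by *Umod* and *Slc12a1*. *Umod* (chr7:119061934-119078505, minus strand) encodes uromodulin, the most abundant protein of normal urine, and shares 17.3% of its 31-base subsequences with 1 other annotated gene. It had 95, 844 and 93 counts in CD4cre libraries, 2, 6, 0, 0 and 58 in those labelled CD4IKK1Δ and 51, 322 and 337 in those labelled CD4NIKΔ. In CPM every library labelled CD4IKK1Δ was below every other library, with its replicate 5 at 2.61 CPM next to CD4NIKΔ replicate 1 at 2.85 CPM. *Slc12a1* (chr2:124994425-125071922, plus strand) encodes NKCC2, the sodium potassium chloride cotransporter that loop diuretics block. It had 81, 133 and 1 counts in CD4cre libraries, 7, 32, 0, 0 and 0 in those labelled CD4IKK1Δ and 28, 3 and 62 in those labelled CD4NIKΔ. The groups overlapped, since CD4cre replicate 3 and CD4NIKΔ replicate 2 held fewer counts than replicates 1 and 2 labelled CD4IKK1Δ. The pair did not keep a fixed ratio: CD4cre replicate 3 held 93 counts of *Umod* beside 1 of *Slc12a1*, and CD4IKK1Δ replicate 2 held 6 beside 32.

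Farther along, *Slc12a3* (chr8:95055829-95094170, plus strand) encodes NCC, the thiazide-sensitive cotransporter of the distal convoluted tubule. It had 41, 232 and 32 counts in CD4cre libraries, 28, 7, 9, 33 and 7 in those labelled CD4IKK1Δ and 20, 71 and 94 in those labelled CD4NIKΔ. It was above 3 counts in all 11 libraries, as only *Lrp2* was besides, and its groups overlapped. *Klk1* had the highest mean CPM of the 10 in CD4cre libraries and in those labelled CD4NIKΔ, whereas *Lrp2* (2.72 CPM) led *Klk1* (1.63 CPM) in those labelled CD4IKK1Δ. *Klk1* had 2572, 6653 and 236 counts in CD4cre libraries, 1, 4, 0, 97 and 68 in those labelled CD4IKK1Δ and 116, 1095 and 2218 in those labelled CD4NIKΔ. In CPM these were 99.0, 323 and 11.8, then 0.0640, 0.210, 0, 4.81 and 3.06, then 6.47, 53.8 and 156, so that the libraries labelled CD4IKK1Δ lay below all 6 others, although the CD4cre libraries alone spanned 27.4-fold. *Aqp2* (chr15:99476936-99485016, plus strand) encodes the vasopressin-regulated water channel of collecting duct principal cells, and 15.4% of its 31-base subsequences recur in other genes. It had 32, 61 and 0 counts in CD4cre libraries, 1, 0, 0, 72 and 0 in those labelled CD4IKK1Δ and 9, 32 and 153 in those labelled CD4NIKΔ. CD4IKK1Δ replicate 4 held more *Aqp2* counts than any CD4cre library while the other 4 libraries of its group were at 0 or 1.

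**Figure D1:**
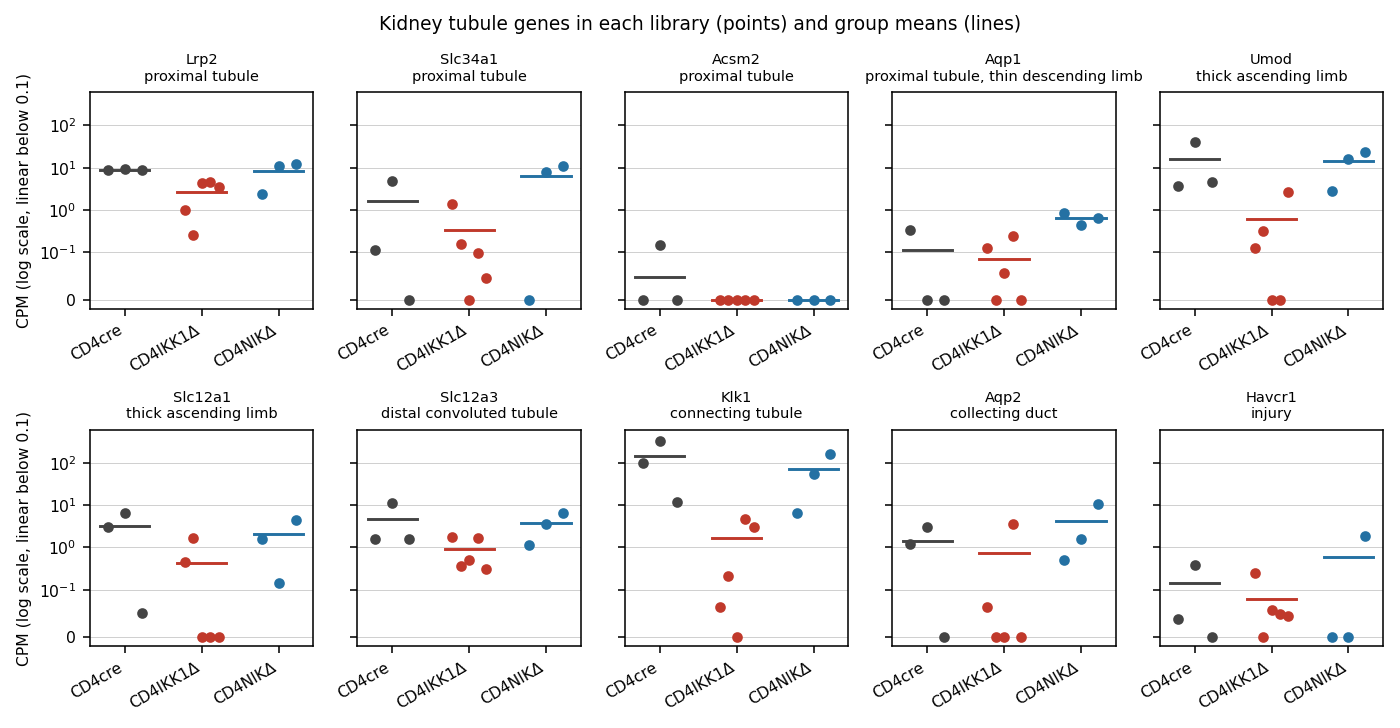
CPM of the 10 tubule genes in each library on a logarithmic axis that is linear below 0.1, with points for single libraries, lines for group means and colours for genotype. *Klk1* ranged from 0 to 323 CPM and *Acsm2* stayed at or under 0.146 CPM. For *Klk1* and *Umod* all 5 points of CD4IKK1Δ lie below the points of both other groups.

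The genes peaked in the same few libraries, but their proportions varied. By CPM, CD4cre replicate 2 was the highest library for 5 of the 10 genes (*Klk1*, *Umod*, *Slc12a1*, *Slc12a3* and *Acsm2*) and CD4NIKΔ replicate 3 for 4 (*Lrp2*, *Slc34a1*, *Aqp2* and *Havcr1*), whereas *Aqp1* was highest in CD4NIKΔ replicate 1. *Klk1* made up 84.1%, 80.9% and 43.9% of the summed CPM in the CD4cre libraries and 41.3%, 57.1% and 68.7% in those labelled CD4NIKΔ, but 1.20%, 7.02%, 0%, 32.1% and 31.9% in those labelled CD4IKK1Δ. The leading gene of the libraries labelled CD4IKK1Δ therefore varied, from *Slc12a3* in replicate 1 to *Slc12a1* in replicate 2 and *Lrp2* in replicate 3. Without *Klk1*, the other 9 genes summed to 15.1 to 76.2 CPM in CD4cre libraries, 2.78 to 10.2 CPM in those labelled CD4IKK1Δ and 9.21 to 71.2 CPM in those labelled CD4NIKΔ, where the last 2 groups overlap. Over the 11 libraries, which share groups and depth, the log2 CPM of *Klk1* correlated at Pearson's r = 0.87 with *Umod* and at 0.76 with *Lrp2*, *Slc12a3* and *Aqp2*, while *Lrp2* and *Slc12a1* were at 0.02. These are descriptions with no test.

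**Figure D2:**
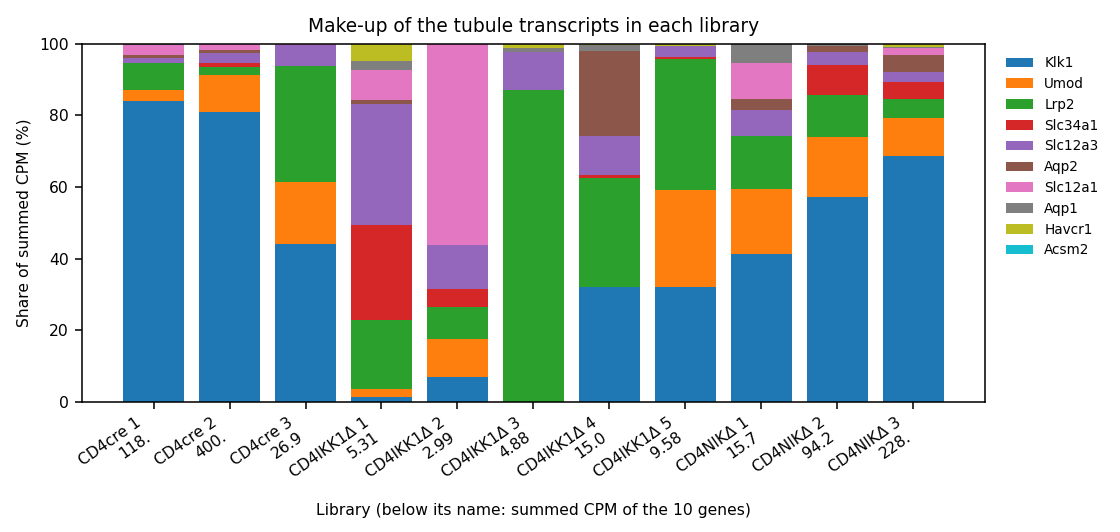
Share of each tubule gene in the summed CPM of the 10 genes, 1 bar per library, with the sum written below the library's name. *Klk1* fills 84.1% of the bar in CD4cre replicate 1 and 0% in CD4IKK1Δ replicate 3, where *Lrp2* fills most of it.

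Levels of different genes were compared per kilobase of merged exons, the length that GENCODE annotates. In CD4cre libraries *Klk1* had 126 ± 140 CPM per kilobase (SD, n = 3), *Umod* 5.95 ± 7.71 and *Slc12a1* 0.557 ± 0.557, followed by *Lrp2* at 0.529 ± 0.0160, *Slc12a3* at 0.387 ± 0.449, *Aqp2* at 0.349 ± 0.372 and *Slc34a1* at 0.259 ± 0.433. From *Slc12a1* to *Slc34a1* neighbours in this order differed by less than the larger of their SDs, so no order among them can be read. *Havcr1*, *Aqp1* and *Acsm2* ended the order at 0.0550 ± 0.0828, 0.0388 ± 0.0672 and 0.00655 ± 0.0113 CPM per kilobase. In libraries labelled CD4NIKΔ the level per kilobase of *Klk1* was 63.0 ± 66.9 and that of *Umod* 5.12 ± 3.82 (SD, n = 3), and in those labelled CD4IKK1Δ they were 1.42 ± 1.92 and 0.221 ± 0.407 (SD, n = 5), so that *Klk1* led in every group by its mean.

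Whether loss of IKK1 in T cells changed this tubule RNA was asked first against CD4cre. All 6 tubule genes that passed the expression filter had lower means in libraries labelled CD4IKK1Δ, but none passed the threshold, as none of the 15653 genes tested did (0%). *Klk1* was at a log2 fold change of −6.43 (standard error, SE, 1.62, and FDR 0.153 in edgeR's quasi-likelihood test), with means of 1.63 and 145 CPM. *Umod* followed at −4.71 (SE 1.54, edgeR FDR 0.190), *Slc12a3* at −2.38 and *Lrp2* at −1.69 (FDR 0.243 and 0.291). *Slc12a1* and *Aqp2* were at −2.91 and −0.93 with FDR values of 0.436 and 0.888. The median over the 6 genes was −2.64, where the median of all genes was 0.02. This value depended on 1 control library: without CD4cre replicate 2 the median was −1.78, and *Umod*, *Slc12a3*, *Slc12a1* and *Aqp2* were at −2.74, −0.77, −1.89 and 0.23, while *Umod* was at −7.14 without CD4IKK1Δ replicate 5. For 3 of them (50%), *Klk1*, *Lrp2* and *Umod*, all 5 libraries lay below all 3 CD4cre libraries, a separation that 8.44% of all genes tested showed in this direction. At an unadjusted p under 0.05 edgeR held 4 of these 6 genes and 2592 of all genes. DESeq2 called *Klk1* (log2 fold change −6.48, adjusted p 0.00712 from DESeq2), and it called 552 of 23700 genes in this comparison. *Slc34a1*, *Acsm2*, *Aqp1* and *Havcr1* did not pass the filter, and in a fit without it *Slc34a1*, *Aqp1* and *Havcr1* were at −2.26, −0.41 and −0.77, none of them called, while for *Acsm2* both groups were at or under the floor. In the same comparison the T cell markers were at a median of −2.04 with 14 of 15 negative and 0 called. The erythroid and macrophage markers were at medians of −1.40 and −2.52. These are differences between groups, and single libraries did not keep a common order. CD4IKK1Δ replicate 3 had the highest T cell marker sum of its group (1530 CPM), with 0 counts of *Klk1* and *Umod* and 75 of *Lrp2*. The part of T cells, erythroid cells and macrophages in the tubule values was not tested.

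NIK acts upstream of IKK1 in the non-canonical NFκB pathway, and the libraries labelled CD4NIKΔ were compared with the same 3 CD4cre libraries. None of the 7 tubule genes tested passed the threshold, while 17.4% of the 15209 genes tested did. *Slc34a1* and *Aqp2* had higher means in libraries labelled CD4NIKΔ, at log2 fold changes of 1.91 (standard error 1.88) and 1.59 (standard error 1.47), with FDR values of 0.495 and 0.465 from edgeR's quasi-likelihood test. Without CD4NIKΔ replicate 3 *Aqp2* turned to −0.42 and *Slc34a1* was at 1.25, and without CD4cre replicate 2 *Aqp2* was at 2.78 and *Slc34a1* was left with 3 and 0 counts in CD4cre, so that no fold can be given. *Klk1* was at −1.02 (standard error 1.16), *Slc12a1* at −0.68, *Slc12a3* at −0.39, *Umod* at −0.24 and *Lrp2* at −0.08, with standard errors from 0.57 for *Lrp2* to 1.39 for *Slc12a1*, so a change of these sizes could not be told from 0. Without CD4cre replicate 2, *Klk1*, *Umod*, *Slc12a1* and *Slc12a3* turned to 0.40, 1.77, 0.36 and 1.24, and without CD4NIKΔ replicate 1 *Lrp2*, *Umod* and *Slc12a3* turned to 0.40, 0.27 and 0.07, so the direction of these genes rests on single libraries. The median over the 7 genes was −0.24, beside −0.02 for all genes, and it was 1.24 without CD4cre replicate 2, 0.27 without CD4NIKΔ replicate 1 and −0.82 without CD4NIKΔ replicate 3. *Aqp1*, which was not tested, was the 1 gene of the 10 that did not overlap between the groups, being higher in libraries labelled CD4NIKΔ, as were 23.0% of the genes tested.

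Set directly against each other in a fit of all 11 libraries, the groups labelled CD4IKK1Δ and CD4NIKΔ differed past the threshold in 2 of the 7 tubule genes tested. *Klk1* was lower in libraries labelled CD4IKK1Δ by a log2 fold change of −5.43 (SE 1.53, edgeR FDR 0.0178), with means of 1.63 ± 2.20 CPM (SD, n = 5) and 72.2 ± 76.6 CPM (SD, n = 3). *Umod* was lower by −4.48 (SE 1.44, edgeR FDR 0.0280), with 0.610 ± 1.12 and 14.1 ± 10.6 CPM. These 2 of 7 (28.6%) stand beside 18.5% of the 16546 genes tested that were called lower and 33.3% called in either direction, and the same 2 were the tested tubule genes without overlap between the groups, as were 24.6% of all genes in this direction. The share of tubule genes is therefore near that of genes in general. *Slc12a3* at −2.01, *Slc34a1* at −4.20 and *Lrp2* at −1.64 did not pass (FDR 0.0908, 0.0938 and 0.0988 from edgeR), nor did *Slc12a1* at −2.23 and *Aqp2* at −2.54 (FDR 0.305 and 0.307). All 7 estimates were negative with a median of −2.54, where all genes had 0.06, and this median ran from −4.02 without CD4IKK1Δ replicate 2 to −1.31 without CD4NIKΔ replicate 3. The calls depend on single libraries: without CD4NIKΔ replicate 3 neither *Klk1* (FDR 0.0904) nor *Umod* (FDR 0.0943 from edgeR) passed, and *Umod* also failed without CD4NIKΔ replicate 2 (FDR 0.0646) or CD4IKK1Δ replicate 2 (FDR 0.0592), and in the fit without the expression filter (FDR 0.0600), while it was at −6.92 without CD4IKK1Δ replicate 5. In turn *Slc34a1* passed without CD4IKK1Δ replicate 1 (FDR 0.0304) or CD4NIKΔ replicate 1 (FDR 0.0490), where *Lrp2* passed as well (FDR 0.0471), and *Aqp2* passed without CD4IKK1Δ replicate 4 (FDR 0.00706 from edgeR), where the other libraries of the group held 1 or 0 counts, so that no fold is given. *Slc12a1* was at −0.99 and *Aqp2* at −0.50 without CD4NIKΔ replicate 3, and *Slc12a1* at −4.17 without CD4IKK1Δ replicate 2. DESeq2 called 4 tubule genes, adding *Slc34a1* and *Slc12a3*, and the share of all genes that it called in this comparison is not given here. T cell markers were also lower between these groups, 14 of 15 called lower with a median of −4.07, and 4 of 6 erythroid markers were called lower with a median of −1.95. Of the macrophage and monocyte markers 6 of 10 were called lower with a median of −1.94, and of the B cell markers 2 of 4, *Cd79b* and *Ighm*. Of the CD8 and NK cell markers 6 of 7 were called lower, with a median of −4.09. The part of these cells in the tubule values was not tested here either. With the 2 libraries of fewest T cell receptor counts left out, *Klk1* remained past the threshold at −4.75 (FDR 0.0305) and *Umod* did not (−3.98, FDR 0.0800 from edgeR), while *Slc12a1* passed (FDR 0.0267 from edgeR) with 0 counts in the 3 remaining libraries labelled CD4IKK1Δ, so that its fold is not given.

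**Figure D3:**
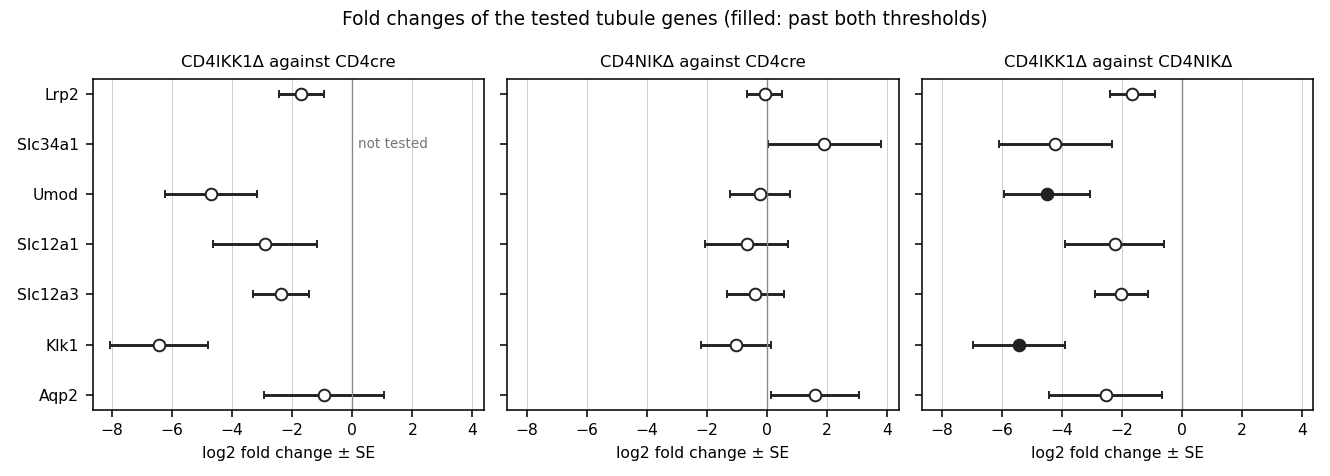
Log2 fold changes with standard errors of the 7 tubule genes tested in at least 1 comparison, 1 panel per comparison, with filled points past both thresholds. All estimates in both CD4IKK1Δ panels lie below 0, and only *Klk1* and *Umod* in the right panel are filled.

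Other genes of the same segments moved in both directions. Against CD4cre, none of the other proximal, thick ascending limb, distal, collecting duct, pan-tubule or injury genes passed the threshold in libraries labelled CD4IKK1Δ. Of 30 other proximal genes 14 were tested there, with a median of −0.16 and 7 negative. In the direct comparison 18 were tested, 5 were called lower and 2 higher, beside 33.3% of all genes called in either direction, and the median was −0.86. *Pck1*, the gluconeogenic enzyme PEPCK, had 62, 5 and 8 counts in CD4cre libraries, 1, 3, 0, 19 and 14 in those labelled CD4IKK1Δ and 275, 275 and 312 in those labelled CD4NIKΔ. It was lower than in the last group by −5.50 and higher in that group than in CD4cre by 4.03 (FDR 0.00127 and 0.0173 from edgeR). *Ass1*, which makes argininosuccinate, was at −4.45 in the direct comparison (FDR 0.00354 from edgeR), while the bicarbonate transporter gene *Slc4a4* was at 1.30 (FDR 0.00472). *Miox*, the inositol oxygenase of proximal cells, and *Ttc36* were at −6.08 and −4.62 there (FDR 0.00765 and 0.00937 from edgeR). In libraries labelled CD4IKK1Δ *Miox* had 0, 10, 0, 0 and 0 counts and *Ttc36* had 0, 3, 8, 0 and 0. These lie mostly at or under the floor, so the sizes of these 2 folds are uncertain. In libraries labelled CD4NIKΔ, *Ggt1* rose against CD4cre by 2.79 and *Acsm3* passed as well (FDR 0.0334 and 0.0309 from edgeR). With *Pck1* these were 3 of 16 tested, near the 17.4% of all genes called, and the median over the list was 1.39. *Acsm3* had at most 1 count in CD4cre libraries, under the floor, so that its fold is not given, and 10, 14 and 14 in those labelled CD4NIKΔ, but 53 in CD4IKK1Δ replicate 5.

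Genes of the later segments also moved in both directions, and some of those in either direction are known from brain as well. In the same direct comparison 33.3% of the 16546 genes tested were called, 2444 genes being called higher. Of 12 other thick ascending limb genes 6 were tested directly, and 3 of them, *Ppp1r1a*, *Sostdc1* and *Cldn10*, were higher in libraries labelled CD4IKK1Δ than in those labelled CD4NIKΔ, by 1.48, 1.39 and 1.75. *Ppp1r1a*, an inhibitor of protein phosphatase 1 with high expression in striatum, was also lower in libraries labelled CD4NIKΔ than in CD4cre (−1.12, FDR 0.0279 from edgeR). Of 8 other distal and connecting tubule genes, *Calb1*, *Slc8a1* and *Kl*, which neurons or choroid plexus express too, were higher at 1.16, 1.57 and 1.62, and *Pvalb* and *S100g* were lower. *S100g*, calbindin-D9k of the connecting tubule, had 63, 121 and 12 counts in CD4cre libraries, 0, 1, 0, 4 and 12 in those labelled CD4IKK1Δ and 10, 53 and 163 in those labelled CD4NIKΔ, a log2 fold change of −4.84 (FDR 0.00966 from edgeR) between the last 2 groups. *Pvalb*, parvalbumin of the early distal tubule and of interneurons, had 0 counts in all 8 other libraries and 60, 47 and 25 counts in those labelled CD4NIKΔ, at least 18.0-fold higher than CD4cre and 15.4-fold higher than CD4IKK1Δ against 3 counts in each library at 0. Of 15 other collecting duct genes 8 were tested, with *Aqp3* (−4.45) and *Atp6v0d2* (at most 3 counts in libraries labelled CD4IKK1Δ) lower and *Aqp4* (1.43) and *Slc26a4* (1.02) higher. *Aqp3* is also expressed in T cells, *Atp6v0d2* in macrophages and *Aqp4* in astrocytes, so that *Aqp4* is also on the list of neuronal and glial markers. The medians of these 3 lists were 0.19, 0.29 and −0.22 in the direct comparison, beside 0.06 for all genes, with *Pvalb* at its bound leaving the second unchanged at 0.29. Against CD4cre, libraries labelled CD4NIKΔ had *Slc8a1* and *Aqp4* (−1.67) lower and *Pvalb* higher, and the medians of the 3 lists were −1.12, −0.97 and −0.15. In the direct comparison 11 of 14 neuronal and glial markers were called higher and 0 of the 14 were negative, with a median of 1.51. The part of neurons and glia in the list values was not tested.

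Epithelial and injury genes did not follow *Klk1* as lists. Of 10 pan-tubule genes 6 were tested, *Epcam*, an epithelial adhesion molecule, was lower in the direct comparison (−4.81, FDR 0.00331 from edgeR), *Emx1*, a transcription factor of cerebral cortex as well, was higher (1.85), and the median was 0.07. *Cdh16*, the kidney-specific cadherin, had 6, 170 and 1 counts in CD4cre libraries, 8, 2, 6, 19 and 9 in those labelled CD4IKK1Δ and 48, 26 and 43 in those labelled CD4NIKΔ, and was chosen after its values were seen. Of 10 other injury and repair genes 8 were tested directly and 3 called, near the 33.3% of all genes called in that comparison. *Vim*, the intermediate filament of mesenchymal cells, leukocytes and dedifferentiated tubule cells, was lower by −3.65, and *Sox9* and *Cryab*, which glia also express, were higher by 2.73 and 1.75 (FDR 0.00909, 0.00229 and 0.000237 from edgeR). All 3 also differed in the opposite sense between libraries labelled CD4NIKΔ and CD4cre (2.70, −2.21 and −1.54), where 17.4% of all genes were called, and both comparisons share the CD4NIKΔ libraries. *Lcn2*, the gene of the injury marker NGAL, was at 6, 34 and 0 counts in CD4cre libraries and at 0 to 3 in the other 8, and was likewise chosen after its values were seen.

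Relatives of the tubule genes by gene family moved in both directions, beside 33.3% of all genes called in the direct comparison. Of these relatives *Aqp3* and *Aqp4* are also on the list of other collecting duct genes above. Of 13 other kallikrein 1 genes, 3 were tested directly and *Klk1b27* was lower (−4.29, FDR 0.0142 from edgeR), with 26, 30 and 14 counts in CD4cre libraries, 0, 0, 0, 12 and 10 in those labelled CD4IKK1Δ and 48, 109 and 70 in those labelled CD4NIKΔ. Among 7 other *Slc12* cotransporter genes, *Slc12a9* (−2.12), *Slc12a7* (−3.50) and *Slc12a4* (−2.71) were lower and *Slc12a5* (1.54), the neuronal potassium chloride cotransporter KCC2, was higher. Of the other aquaporins 4 were called, with *Aqp3* (−4.45) and *Aqp9* (−3.97) lower and *Aqp4* (1.43) and *Aqp11* (1.16) higher of 5 tested. Among relatives of *Lrp2* and *Slc34a1*, *Lrp1b*, *Vldlr*, *Lrp8* and *Lrp1* were higher by 1.08 to 1.88. Of the 3 other Tim family genes 1, *Timd2*, was tested and not called, and the 2 most abundant, *Timd2* and *Havcr2*, had 16 to 93 and 0 to 72 counts. These calls are all from the direct comparison.

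The genes whose levels ran most like the tubule genes over the 11 libraries were found among 14034 genes of at least 1 CPM on average. For the summed level of the 10 genes they were *S100g* (r = 0.95), *Sin3a* (0.94), *Cnr2* (0.93), *Sdhaf1* (0.92) and *Btbd11* (0.92). For *Klk1* alone they were *Ddit3* (0.97), *Cited4* (0.96), *S100g* (0.96), *Cnr2* (0.95) and *P2rx4* (0.93). *Cnr2*, the cannabinoid receptor of leukocytes, averaged 5.25, 0.445 and 6.07 CPM in CD4cre libraries and those labelled CD4IKK1Δ and CD4NIKΔ, and *Ddit3*, the stress transcription factor CHOP, 10.4, 3.77 and 10.4 CPM. The values are Pearson's r of log2 CPM, given as a description of libraries that differ in group and in T cell content. The sum of the 10 genes was lowest in the libraries with the fewest T cell and erythroid transcripts as groups, and the 3 libraries labelled CD4NIKΔ kept the same order in all 3 sums. For T cell markers the order differed among CD4cre libraries, where replicate 2 had the highest tubule sum (400 CPM) and replicate 1 the most T cell markers (3138 CPM). It also differed among those labelled CD4IKK1Δ, where replicate 3 had the most T cell markers (1530 CPM) and a tubule sum of 4.88 CPM. Erythroid markers peaked with the tubule sum in each group, at 2678 CPM in CD4cre replicate 2, 1610 CPM in CD4IKK1Δ replicate 4 and 8175 CPM in CD4NIKΔ replicate 3. Among the other CD4cre libraries their order differed, with 2084 CPM in replicate 1 and 2294 CPM in replicate 3 beside tubule sums of 118 and 26.9 CPM.

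**Figure D4:**
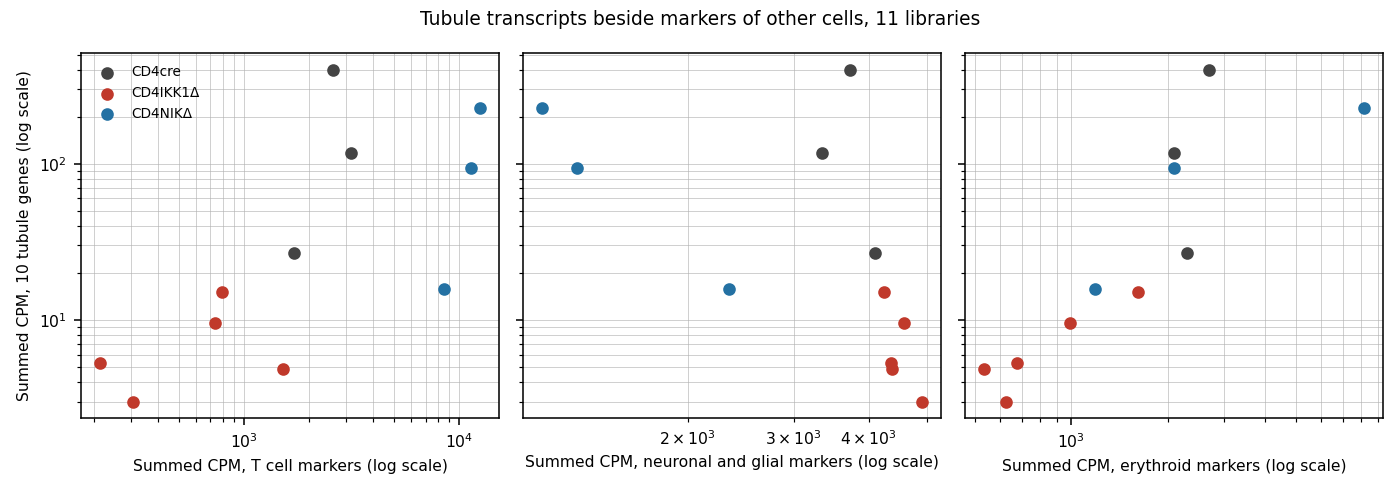
Summed CPM of the 10 tubule genes against the summed CPM of T cell, neuronal and glial, and erythroid markers, 1 point per library and logarithmic axes, coloured by genotype. The 5 points of CD4IKK1Δ lie at 15.0 CPM or less on the vertical axis, and the 3 of CD4NIKΔ spread from 15.7 to 228 CPM at T cell sums of 8539 CPM or more.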

How the data were processed

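Renal CD4+ T cell RNA was sequenced in 3 CD4cre, 5 CD4IKK1Δ and 3 CD4NIKΔ libraries, whose labels give the genotype of each. The authors amplified the RNA with a SMARTer kit, trimmed reads with Trimmomatic, assigned them with kallisto to mouse transcripts and deposited estimated counts per gene symbol, neither normalized nor filtered. The genome build is GRCm39 in the study's methods and mm10 in the submitters' processing notes, and the counts carry symbols only. The kallisto version, the annotation and the use of strand are not given in the sources used here. Kallisto divides reads that fit several genes among them, so that genes with near copies share counts.

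Estimated counts were rounded and tested with edgeR 4.0.16 in R 4.3.3 (filterByExpr, TMM, robust quasi-likelihood F test, Benjamini-Hochberg adjustment over all genes tested). A comparison with CD4cre was fitted on the libraries of its 2 groups alone, the direct one on all 11. A gene was called at an FDR under 0.05 and an absolute log2 fold change over 1. Both comparisons with CD4cre share the control libraries. The standard error was taken as the log2 fold change over the square root of F. CPM values use TMM factors over all 11 libraries, log2 CPM a prior count of 2, and 3 counts per library were the floor, which covers counting error only. Scripts were tested on simulated data. DESeq2 1.42.0 and the settings listed in the closing part were alternatives. All 55 pairs of libraries were checked, and 0 pairs held identical values. The study's legends count mice in the numbers of these libraries, and the labels add only replicate numbers, so p-values measure the spread between these libraries.

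The 10 genes and all marker lists were chosen with earlier results of these data known. Named besides the 10 were the 5 genes with the highest Pearson correlation to their sum and to *Klk1*, and, from each list of other tubule, injury and family genes, those past the threshold, up to 5 by FDR, or otherwise the 2 of highest mean CPM. *Acsm4* and *Krt8* of these lists were not analysed here. Of the symbols, 33508 (93.56%) matched GENCODE release M39, from which GRCm39 coordinates and merged exon lengths came. Promoter windows are from RefSeq on GRCm38.p6.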

Additional observations from a re-analysis of the deposited data

Results flagged for a closer look

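Within the 5 libraries labelled CD4IKK1Δ, 1 library stood far from the others for 5 of the 10 genes, as its gap to the nearest of the others exceeded Dixon's critical share of the range. *Slc34a1* reached 1.41 CPM in replicate 1, where *Pfn3*, which shares sequence with it, had 29 counts, but *Pfn3* had 35 in replicate 4, where *Slc34a1* had 2. *Havcr1* reached 0.256 CPM in the same replicate, which is 4 counts. *Slc12a1* reached 1.68 CPM in replicate 2, *Aqp2* 3.57 CPM in replicate 4 and *Umod* 2.61 CPM in replicate 5. The 5 genes thus peaked in 4 different libraries. For normally distributed values chance alone flags about 1 group in 20, and 9 genes were checked, as *Acsm2* was at 0 throughout this group. That rate need not hold for CPM values from counts near 0 such as these, so the number of flags is not set against it.

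The difference from CD4cre was unequal in libraries labelled CD4IKK1Δ and CD4NIKΔ for *Klk1* and *Umod* by the direct test. The log2 difference between them was −5.43 for *Klk1* and −4.48 for *Umod* (FDR 0.0178 and 0.0280 from edgeR's quasi-likelihood test), with the limits from single libraries given beside these values in the report.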

How the results depend on the processing

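The number of genes called between libraries labelled CD4IKK1Δ and CD4cre, 0 as reported, was 552 with DESeq2, 1 with RLE and 1 with upper-quartile factors, 48 without the expression filter, 159 with 10 counts in every library, 129 with all 11 libraries in the fit, 3 with the replicate block, and 36 without both libraries of lowest T cell receptor counts, a setting chosen after seeing the data. Leaving out 1 library gave 0 to 23 (23 without CD4IKK1Δ replicate 4, 9 without replicate 3, 4 without replicate 1, 2 without CD4cre replicate 3). DESeq2 and the replicate block each called 1 tubule gene there, *Klk1*. Between CD4NIKΔ and CD4cre, 2649 genes became 1185 with the replicate block and 674 to 3468 without 1 library (674 without CD4NIKΔ replicate 3, 918 without replicate 2, 859 without CD4cre replicate 3, 1001 without replicate 2). No tubule gene was called in any of these fits. In the direct comparison the count of 2 tubule genes was 4 with DESeq2, 1 without the expression filter, where *Umod* was lost, and 0 to 4 without 1 library. With 10 counts in every library no tubule gene was left in either comparison of CD4IKK1Δ. The cause of these changes was not tested.

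The replicate block paired libraries by number. Same-numbered libraries did not deviate together (correlations from −0.09 to 0.07), so the numbers do not pair them. The block turned *Umod* against CD4cre in CD4NIKΔ from −0.24 to 0.12 and moved *Klk1* there from −1.02 to −1.67 and *Aqp2* from 1.59 to 0.55. In CD4IKK1Δ against CD4cre it moved *Klk1* from −6.43 to −10.54, *Lrp2* from −1.69 to −2.99, *Aqp2* from −0.93 to −5.51 and the median of the tubule genes tested from −2.64 to −4.25. In the direct comparison *Klk1* and *Umod*, still called, moved from −5.43 to −9.32 and from −4.48 to −6.72, and *Aqp2*, not called, from −2.54 to −6.89.

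Left-out libraries also turned log2 fold changes that were not called. Against CD4cre, *Aqp2* ranged from −1.51 to 0.23 in CD4IKK1Δ. In CD4NIKΔ *Aqp2* ranged from −0.42 to 2.78, *Klk1* from −2.26 to 0.40, *Umod* from −0.82 to 1.77, *Slc12a1* from −1.91 to 0.36, *Slc12a3* from −1.06 to 1.24 and *Lrp2* from −0.39 to 0.40. Upper-quartile factors moved the median of all genes in the direct comparison from 0.06 to 0.30, and *Klk1* and *Umod* stayed negative in all 20 alternatives of that comparison. *Acsm2*, at or under the floor of 3 counts in every library, cannot show a difference at this depth, and *Aqp1* and *Havcr1* failed the expression filter and were not called in the fit without it.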
